A study of Homo sapiens with 4 samples.

Results

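The loci of 4 ETS transcription factor genes that are rearranged in prostate cancer, ETV1, ERG, ETV4 and ETV5, were examined in ATAC-seq peak lists of LNCaP, an androgen-sensitive human prostate cancer cell line. ATAC-seq inserts sequencing adapters into accessible DNA with a transposase, so a peak marks open chromatin. Members were the peaks whose summit lay in the gene body or within 50 kb of it in hg19, taking ETV1 as chr7:13930856-14031050, ERG as chr21:39739183-40033704, ETV4 as chr17:41605211-41623800 and ETV5 as chr3:185764106-185826901. This gave 65 of the 163735 peaks listed with GSK2879552 and 84 of the 194551 peaks listed with vehicle. At the edges, the nearest peaks left out lay 486 and 496 bp beyond the upstream limit of ERG, with 32 tags (GSK2879552) and 54 tags (vehicle), and the nearest one kept lay 3901 bp inside the downstream limit of ETV1, with 14 tags (vehicle).

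LNCaP cells in medium with 5% CSS were given GSK2879552, which irreversibly blocks LSD1 (KDM1A), an enzyme that takes methyl groups off histones, or were given vehicle. The protocol text, which is the same for all 4 samples, states 50 µM for 4 hours, and 10% FBS for maintenance. Each condition is 1 library run on 2 lanes labelled as technical replicates, with 1 list. There was therefore no replicate and no test between conditions, and all intervals below cover counting error only. Values are tags at the summit, recovered from the deposited fold and −log10 p. The GSK2879552 library was the deeper one by its genome-wide background, and a scaled ratio is GSK2879552 over vehicle divided by that depth ratio of 1.18. Over all pairs this scaling moved the median log2 ratio to -0.56, where the unscaled value was -0.32, so directions are given against the level of all pairs.

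ETS factors bind DNA at a GGAA core through a shared ETS domain. ETV1, ETV4 and ETV5 form the PEA3 subfamily, whose transcription is raised by growth factor signalling through MAP kinase and held down by the repressor capicua. ERG belongs to another ETS subfamily, acts in endothelial and blood stem cells, and is the gene most often fused to the androgen-driven TMPRSS2 promoter in prostate cancer. LNCaP does not carry that fusion. It carries ETV1 moved into the MIPOL1 gene on another chromosome, and reads from the moved and the resident copies fall on the same hg19 positions, so the lists cannot tell them apart.

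Promoter sequences were taken from RefSeq (GRCh38.p14), in which 2 of the 4 members, ETV1 with 6 transcript starts and ERG with 4, had entries. ETV4 and ETV5 are named here without a sequence. Shown are the 250 bases before the most upstream ETV1 start and before 2 ERG starts. The ERG starts were chosen because peaks were listed near the hg19 gene start of ERG and none at the spacing of the internal start. RefSeq starts were not converted to hg19, so no peak is placed at a RefSeq start. Capitals mark GGAA on either strand. The windows are, on the minus strand, chr7:13991426-13991675 for ETV1, chr21:38660668-38660917 for the first ERG start and chr21:38498505-38498754 for the internal ERG start.
ETV1, most upstream start: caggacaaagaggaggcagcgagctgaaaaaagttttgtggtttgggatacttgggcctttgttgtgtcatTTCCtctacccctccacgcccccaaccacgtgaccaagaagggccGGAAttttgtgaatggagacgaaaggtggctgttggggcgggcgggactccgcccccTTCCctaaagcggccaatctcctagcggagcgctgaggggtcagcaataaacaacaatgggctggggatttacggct
ERG, first start: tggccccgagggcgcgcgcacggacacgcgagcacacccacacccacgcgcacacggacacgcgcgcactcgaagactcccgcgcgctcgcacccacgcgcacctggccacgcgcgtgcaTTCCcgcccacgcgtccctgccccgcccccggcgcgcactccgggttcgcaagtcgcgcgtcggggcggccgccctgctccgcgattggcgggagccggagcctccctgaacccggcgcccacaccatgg
ERG, internal start: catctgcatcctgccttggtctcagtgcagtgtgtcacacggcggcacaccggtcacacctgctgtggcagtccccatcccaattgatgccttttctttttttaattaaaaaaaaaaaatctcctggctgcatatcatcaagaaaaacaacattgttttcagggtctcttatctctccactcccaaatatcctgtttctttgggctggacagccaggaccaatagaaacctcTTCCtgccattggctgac
The first ERG window held 44 CpG dinucleotides, and 99.4% of 35116 RefSeq promoter windows of the same length held as many or fewer. The internal ERG window held 3 and the ETV1 window 12, where the median window held 11. GGAA occurred 3 times in the ETV1 window, once in each of these ERG windows, and in 92.7% of all windows, with a median of 3. The longer CCGGAA occurred once in the ETV1 window and in 14.5% of all windows, and not in these ERG windows. Neither AGAACA, a half-site of the androgen receptor, nor TGTTTAC, a forkhead motif, was found on either strand of the 3 windows printed. AGAACA occurred once in each of the overlapping windows before the ETV1 starts 719 and 723 bp further downstream, which are not printed. The motifs were present in 12.4% and 2.98% of all windows.

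Every locus had fewer listed peaks with GSK2879552, as did the whole list. There were 12 with GSK2879552 and 17 with vehicle at ETV1, 12 and 15 at ETV4, 8 and 14 at ETV5, and 33 and 38 at ERG. With the vehicle list cut to the length of the other, keeping the peaks with the highest −log10 p, the count at ERG turned round, to 33 with GSK2879552 and 31 with vehicle, while ETV1, ETV4 and ETV5 kept fewer with GSK2879552. Tiles of 200 kb along the genome held a median of 5.5 peaks per 100 kb with GSK2879552 and 6.5 with vehicle. ETV4 was the densest locus, with 10.1 per 100 kb (GSK2879552) and 12.7 (vehicle), and ETV5 the sparsest with GSK2879552, at 4.91 against 8.60 with vehicle. The peaks covered 13.7 kb with GSK2879552 and 19.8 kb with vehicle over the 4 loci, and 42 of 50 pairs were narrower with GSK2879552, where 81.2% of all pairs were.

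**Figure D1:**
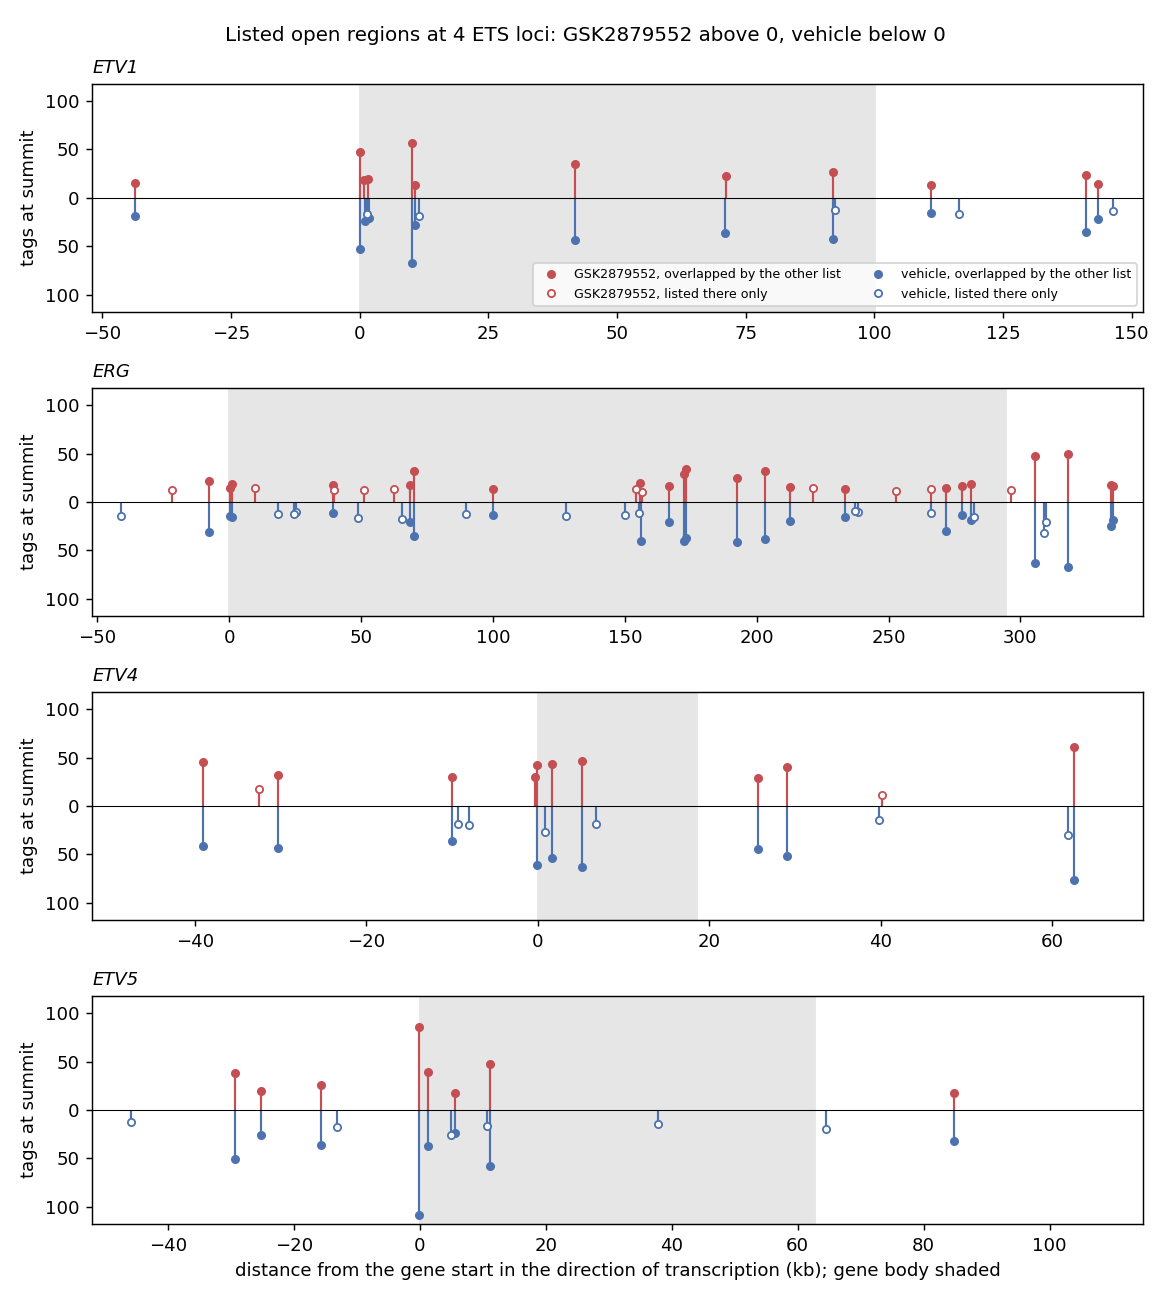
Tags at the summit of each listed peak (vertical axis) against distance from the gene start in the direction of transcription (horizontal axis, kb), with GSK2879552 above 0 and vehicle below 0, the gene body shaded and open circles for peaks with no overlapping peak in the other list. ETV5 has its highest peak at the gene start, 86 tags with GSK2879552 and 108 with vehicle, while the ERG start is low in both conditions.

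At the gene starts, the PEA3 genes were open in both conditions and ERG had fewer tags there. The ETV5 start carried 86 tags with GSK2879552 (exact Poisson 95% interval 68.8 to 106) and 108 with vehicle (88.6 to 130), at chr3:185826630-185827269 in the GSK2879552 list. This was the strongest member in either list. Its scaled ratio was 0.677 (exact binomial 95% interval 0.504 to 0.908). The ETV1 start carried 47 tags with GSK2879552 and 53 with vehicle, at chr7:14030843-14031236, with its summit 3 bp from the gene start. Its ratio, 0.754 (0.498 to 1.14), overlaps both the level of all pairs, 0.683, and no change. The ERG start carried 14 tags with GSK2879552 and 15 with vehicle, at chr21:40033247-40033456. Ranked by tags from the lowest, with ties given their average rank, it stood at 23.1% of the GSK2879552 list and 25.9% of the vehicle list.

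The ETV4 start was listed as 2 peaks with GSK2879552 and as 1 wide peak with vehicle. The GSK2879552 peaks spanned 205 and 124 bp, at chr17:41623789-41623993 with 42 tags and at chr17:41624055-41624178 with 30. The vehicle peak spanned 430 bp with 61 tags, at chr17:41623771-41624200. Between the highest summits the scaled ratio was 0.586 (0.386 to 0.882), an interval that includes the level of all pairs. Over the whole lists, 3.15% of vehicle peaks overlapped more than 1 GSK2879552 peak.

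Where a region was listed in both conditions, the tag ratios of the 4 loci were close to that of the whole lists. Summed over 50 pairs, 1419 tags with GSK2879552 and 1818 with vehicle gave a scaled ratio of 0.664 (0.619 to 0.712), against 0.683 (0.682 to 0.684) over 110134 pairs. By locus the ratio was 0.641 (0.551 to 0.745) at ETV1, 0.678 (0.584 to 0.786) at ETV4, 0.668 (0.571 to 0.780) at ETV5 and 0.667 (0.592 to 0.752) at ERG. All 4 intervals include 0.683 and overlap each other, so no difference between the genes, or between them and the genome, was detectable at this depth. Of the 50 pairs, 48 had a scaled ratio below 1, where 94.2% of all pairs did, and 2 had one above 1, where 5.83% of all pairs did. Among pairs whose summed tags reached 60, all 25 members were below 1, where 98.9% of all such pairs were. Without scaling 43 had fewer tags with GSK2879552, where 83.3% of all pairs did. A ratio below 0.5 was found in 4 pairs, where 7.1% of all pairs were that low.

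**Figure D2:**
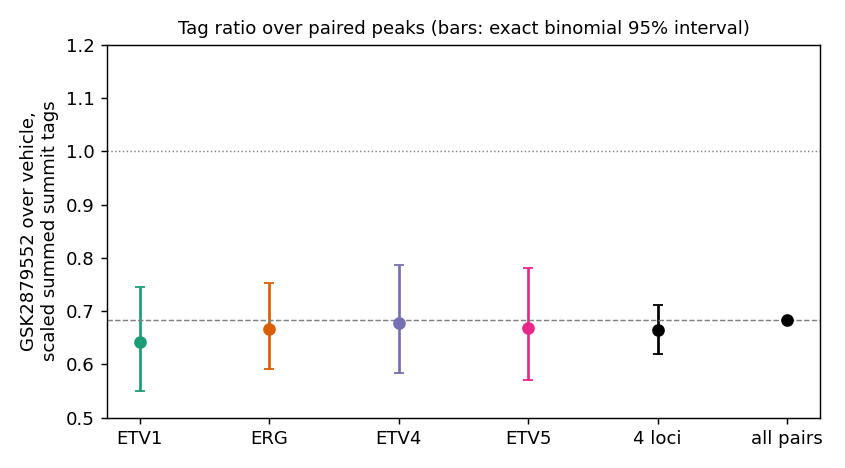
Scaled ratio of summed summit tags, GSK2879552 over vehicle (vertical axis), for the pairs of each locus, of the 4 loci together and of all pairs, with exact binomial 95% intervals. The dashed line is the level of all pairs, 0.683, the dotted line is 1, and every locus lies between 0.641 and 0.678.

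**Figure D3:**
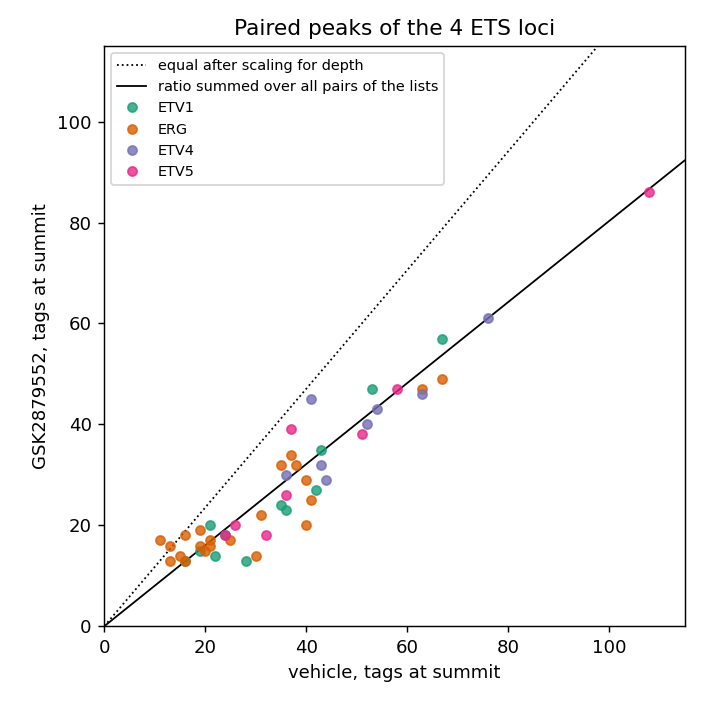
Tags at the summit with GSK2879552 (vertical axis) against vehicle (horizontal axis) for the 50 pairs, coloured by locus. The dotted line is equality after scaling for depth and the solid line the ratio over all pairs; 48 points lie below the dotted line.

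At ETV1, the gene LNCaP carries at a second place, 12 regions were listed in both conditions and all 12 had fewer tags with GSK2879552, scaled or not. Over all pairs, 94.2% had fewer when scaled and 83.3% when not, so this is near what the whole lists show. All 8 pairs at ETV4 and all 8 at ETV5 were also lower after scaling. The strongest was not the start but a region 10.2 kb inside the gene, chr7:14020760-14021080, with 57 tags (GSK2879552) and 67 tags (vehicle). It lay beside a weaker one, 10.8 kb inside, that carried 13 tags with GSK2879552 and 28 with vehicle. That pair gave the lowest ratio among all members, 0.395 (0.188 to 0.788). A further summit of this group, 11.5 kb inside, had 19 tags and was listed with vehicle only. Further into the gene, regions 41.8, 71.1 and 92.0 kb from the start had 35, 23 and 27 tags with GSK2879552 and 43, 36 and 42 with vehicle.

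The first 2 kb of ETV1 held several separate open regions. Beside the one at the start, summits 907 and 1681 bp inside the gene carried 18 and 20 tags with GSK2879552. Their vehicle partners had 24 and 21 tags. Between them, a peak 1343 bp inside with 17 tags was listed with vehicle only. RefSeq places ETV1 transcript starts 176, 719, 723, 1759 and 5013 bp downstream of the most upstream one. These spacings are from GRCh38.p14 and the peaks from hg19, and they were set side by side without conversion.

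At ETV4, all 8 pairs reached 60 tags when both conditions were added, against 4 of 12 at ETV1, 5 of 8 at ETV5 and 8 of 22 at ERG. Over the whole lists, 48512 of 110134 pairs did. The strongest lay 62.5 kb from the start, past the end of the gene, at chr17:41560992-41561586, with 61 tags (GSK2879552) and 76 tags (vehicle). In RefSeq (GRCh38.p14) the coding gene DHX8, an RNA helicase used in splicing, overlaps ETV4, so peaks on this side cannot be assigned to ETV4 alone. Inside the gene, regions 1670 and 5128 bp from the start carried 43 and 46 tags with GSK2879552 and 54 and 63 with vehicle. One region upstream departed from these: 39.1 kb before the gene, chr17:41662752-41662986, had 45 tags with GSK2879552 and 41 with vehicle. Its scaled ratio, 0.934 (0.598 to 1.46), is the highest at ETV4, but its interval includes 0.683, and unscaled it is above 1.

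At ETV5, open regions gathered around the start and upstream of it, and the rest of the gene body was nearly empty. Regions 1345 bp and 11.1 kb inside the gene had 39 and 47 tags with GSK2879552 and 37 and 58 with vehicle. The nearer one had more tags with GSK2879552 before scaling, and its scaled ratio, 0.897 (0.557 to 1.45), is the highest at ETV5, with an interval that includes 0.683. The lowest at ETV5 was past the end of the gene, 84.8 kb from the start, with 18 tags (GSK2879552) and 32 (vehicle), 0.478 (0.253 to 0.878). Upstream, 15.6, 25.2 and 29.3 kb before the gene, the summits had 26, 20 and 38 tags with GSK2879552 and 36, 26 and 51 with vehicle. Deeper in the gene only 1 peak was listed, 37.9 kb from the start, with 15 tags and in the vehicle list alone.

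ERG, the longest of the genes at 294.5 kb, held many weak regions. Its median summit had 16 tags with GSK2879552 and 17.5 with vehicle, where ETV1, ETV4 and ETV5 together had 29.5 and 27.5 and the whole lists 20 and 22. The strongest regions lay past the end of the gene, at chr21:39715659-39715973 with 49 tags (GSK2879552) and 67 (vehicle), and at chr21:39727982-39728192 with 47 and 63. Within the gene no summit exceeded 34 tags with GSK2879552 or 41 with vehicle. The second peak near the start, 1079 bp inside, had 18 tags and 140 bp of width with GSK2879552, against 16 tags and 693 bp with vehicle.

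RefSeq lists ERG starts 75.7 and 162 kb downstream of the first. Counted from the peak 1079 bp inside the gene in the GSK2879552 list, the nearest summits to those spacings were 6.93 and 3.68 kb away, and in the vehicle list 7.02 and 3.58 kb away. No peak was therefore listed at either spacing, although the builds differ and the count from that peak is only a scale. The lowest ratio at ERG among pairs with at least 60 tags was at chr21:39877717-39877848, with 20 tags (GSK2879552) and 40 (vehicle), 0.425 (0.236 to 0.745). The weaker pair at chr21:39761962-39762128, with 14 and 30 tags, gave 0.397 (0.194 to 0.772). The only pairs above 1 after scaling were also at ERG, with 17 and 11 tags (1.31, 0.581 to 3.10) and with 16 and 13 tags (1.05, 0.472 to 2.37), and both intervals include 0.683.

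A −log10 q of at least 5 was reached by 41 of 65 members with GSK2879552, where 62.8% of the list did, and by 66 of 84 with vehicle, where 74.9% did. With GSK2879552, 13 of 65 had no vehicle partner (exact 95% interval 11.1 to 31.8%), where 23.5% of that whole list had none. With vehicle, 33 of 84 had no partner, 39.3% (28.8 to 50.5), where 38.5% of the whole list had none. Both shares are near those backgrounds. The GSK2879552-only peaks had 10 to 18 tags, and 11 of the 13 were at ERG, the other 2 at ETV4. The strongest, with 18 tags, lay 32.5 kb upstream of ETV4. ERG held 33 of the 65 members with GSK2879552. Of these 33, 33.3% had no vehicle partner (17.96 to 51.83%), an interval that includes 23.5%. At ETV1, ETV4 and ETV5 together 6.25% had none (0.766 to 20.81%), which is below 23.5%. These intervals overlap, and a difference between the loci was not tested. With GSK2879552 the median summit had 29.5 tags at ETV1, ETV4 and ETV5 together, 16 at ERG and 20 in the whole list. In that whole list, 38.3% of peaks with under 15 tags had a partner and 99.3% of those with at least 30. The shares were not compared at like tags, so 6.25% cannot be read as particular to these loci. The vehicle-only peaks had 9 to 32 tags, and the 4 strongest stood above the median of 22 in the whole vehicle list. They lay at chr21:39724668-39724792 past ERG with 32 tags, at chr17:41561819-41561995 past ETV4 with 30, beside the ETV4 start with 27 and 4945 bp inside ETV5 with 26.

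**Figure D4:**
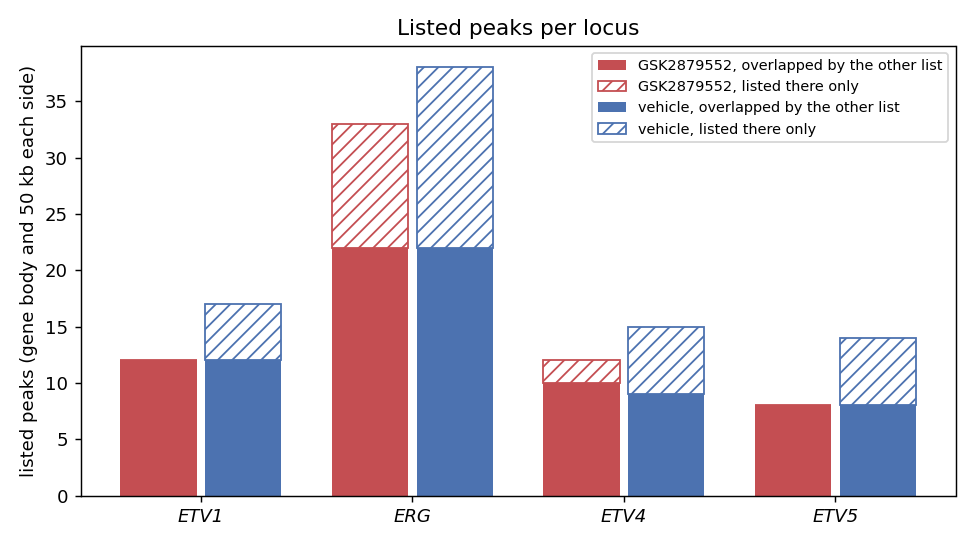
Listed peaks per locus (vertical axis, count over the gene body and 50 kb each side), GSK2879552 left of vehicle; filled parts overlap a peak of the other list and hatched parts do not. ETV1 and ETV5 have no hatched part with GSK2879552, while ERG has 11 of 33 with GSK2879552 and 16 of 38 with vehicle.

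The share of peaks listed in both conditions rose with their tags at these loci, as in the whole lists. Of the vehicle peaks with at least 30 tags, 31 of 33 had a GSK2879552 partner, 93.9%, where 95.9% of all such peaks did. Of those with under 15 tags, 3 of 16 did, 18.8%, where 21.5% of all such peaks did. In the GSK2879552 list, 11 of 11 members with 20 to 29 tags and 21 of 21 with at least 30 had a vehicle partner. Of all such peaks, 94.7% and 99.3% did. Under 15 tags, 7 of 19 members did, 36.8%, where 38.3% of all such peaks did. At 15 to 19 tags the members stood higher than the list, with 13 of 14, 92.9%, where 74.4% of all such peaks did. That difference was not tested.

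The lists also give the tags in the wider surroundings of a summit. The background of a peak counts tags in the 10 kb around it, where it exceeds the genome-wide level of 272 tags with GSK2879552 and 231 with vehicle. A ratio can be had only for pairs above both levels. Where the vehicle value is just above its level, this leaves out low ratios, since their GSK2879552 value falls under 272. Pairs whose vehicle value is not above 231 have no ratio either, even where their GSK2879552 value is high. Over all such pairs the ratio fell as the vehicle level rose, and how much of that fall comes from this limit was not tested. Each locus is therefore set beside pairs of a like vehicle level, to which the same limit applies. Differences between the genes were not tested. At the ETV1 start the 10 kb held 414 tags with GSK2879552 and 511 with vehicle, a scaled ratio of 0.689 (0.604 to 0.786). The other ETV1 regions near the start share most of that window and gave 0.652 and 0.670. Over 66547 pairs with a value in both lists the median was 0.892, and 0.694 was their 5th percentile. For pairs with 500 to 699 vehicle tags in 10 kb, as here, the median was 0.847 and the 5th percentile 0.679. Around the summit 10.2 kb inside ETV1, 320 tags were counted with vehicle. The GSK2879552 value there was at or under its genome-wide level, so the ratio was at most 0.722. Pairs with a value in both lists and 300 to 399 vehicle tags had a median of 0.916, but this pair falls outside that set. At 6 ETV1 pairs only such an upper bound exists, from 0.722 to 0.979. The highest of these bounds do not place their ratios below the median of 0.892. In all, 9 of 12 ETV1 peaks with GSK2879552 and 5 of 17 with vehicle stood at the genome-wide level, where 38.4% and 40.3% of the lists did.

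At ETV4, the 5 pairs in the gene and past its end had scaled 10 kb ratios of 0.736 to 0.796, and the 3 pairs upstream had 0.993 to 1.13. The highest was 30.4 kb upstream, with 487 tags (GSK2879552) and 366 (vehicle). The vehicle level differed between these sides, at 481 to 876 tags in the gene and past its end and 349 to 405 upstream. Over all pairs the median was 0.916 at 300 to 399 vehicle tags, with a 95th percentile of 1.14. It was 0.894 at 400 to 499, 0.847 at 500 to 699 and 0.788 at 700 to 999. In the gene and past its end, the pairs with 481, 508 and 621 vehicle tags had 0.736, 0.767 and 0.775. These lay below the medians at their levels and above the 5th percentiles, 0.697 and 0.679. The pairs with 762 and 876 tags, at 0.796 and 0.792, lay just above their median, and the 3 upstream pairs lay above theirs. The start peaks of ETV4 had no single partner and so no ratio. At the ETV5 start, with 723 vehicle tags, the ratio was 0.841 (0.757 to 0.934), an interval that includes the median of 0.788 at 700 to 999. At ERG the 13 pairs ranged from 0.817 to 1.17, with a median of 0.958, and 6 of them were above 1, where 23.5% of all such pairs were. In 5 of these 6 the vehicle level was under 300 tags. Over all pairs at that level the median was 0.994 and the 95th percentile 1.198, and these 5, at 1.09 to 1.17, lay between those values. Some low ratios are left out at that level, at ERG and over all pairs, because the GSK2879552 value must exceed 272 tags. A further ERG pair, with 234 vehicle tags, was left out in this way, and its ratio was at most 0.987. Another ERG pair, at chr21:39994309-39994710, was left out from the other side. It had 313 tags with GSK2879552 while its vehicle value was at or under 231, so only a lower bound exists for its ratio. The count above 1 therefore cannot be read as a difference of ERG. Neighbouring summits share tags in this measure.

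**Figure D5:**
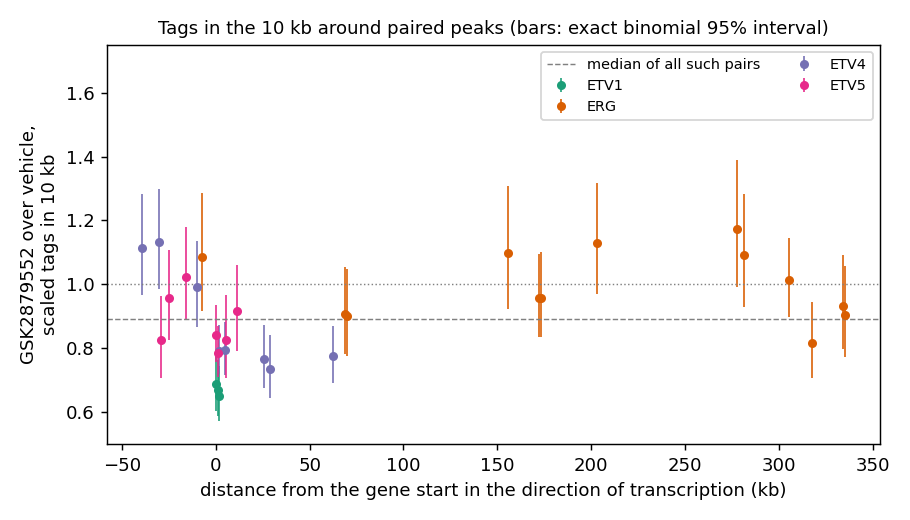
Scaled ratio of tags in the 10 kb around paired peaks, GSK2879552 over vehicle (vertical axis), against distance from the gene start in the direction of transcription (horizontal axis, kb), for the 31 pairs above the genome-wide level in both lists, with exact binomial 95% intervals. The 3 ETV1 pairs lie at 0.652 to 0.689, and the 3 pairs upstream of ETV4 at 0.993 to 1.13.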

How the data were processed

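Peak lists from ATAC-seq of LNCaP cells were used, a single list for GSK2879552 and a single list for vehicle; both lanes of a condition point to the same list. Per the submitters' processing notes, MACS2 2.1.2, BWA 0.7.2 and SAMtools 0.1.18 were among the tools, and hg19 was the build. The sources used here do not state how reads were trimmed, or whether duplicates were removed or reads shifted to the cut site. The authors deposited for every peak a summit position, a score, a fold ratio over background and the −log10 of p and of q.

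The fold ratio and −log10 p deposited by the authors were solved together for the whole number of tags at each summit and the background behind it. A whole number matched within 0.001 for 100% of rows of both lists, and 100% of 5000 simulated peaks were recovered. Backgrounds above the lowest were multiples of 0.01, the step of 100 bp tags counted over 10 kb, so 100 times the background was read as tags in the 10 kb around a summit. The lowest background, 2.72 with GSK2879552 and 2.31 with vehicle, was taken as genome-wide, and its ratio, 1.18, scaled tags for depth. Total tags per library are unknown.

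The comparison was kept to chromosomes 1 to 22, X and Y. Peaks overlapping by 1 bp were shared, and peaks with exactly 1 partner in each direction were pairs. Tiles of 200 kb with at least 1 listed peak (for ratios, at least 10 pairs) gave the background along chromosomes 1 to 22 and X. Intervals are exact at 95% (Clopper-Pearson, Poisson or binomial) and cover counting error only. Regions named were those within 1 kb of a gene start, the 5 pairs with the most tags, the lowest and highest ratio among pairs with at least 60 tags, and the 3 strongest peaks listed in 1 condition only, per locus. Of these the text gives some in full. The members and lists were chosen with earlier results of these data known. Marker genes of LNCaP and other genes of the pathway were not analysed here, since no annotation of hg19 was used. Alternatives were other flanks, overlap rules, scaling, background subtraction, a −log10 q of at least 5, pairs with at least 60 tags and lists of equal length. Python 3.11.15, NumPy 2.4.6, pandas 2.3.3, SciPy 1.17.1 and Matplotlib 3.10.9 were used.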

Additional observations from a re-analysis of the deposited data

How the results depend on the processing

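No paired analysis was possible because each condition had 1 library, and no replicate could be left out for the same reason. Of 134 recomputed tag ratios and median log2 ratios, 132 stayed below no change, 1 for a ratio and 0 for a log2 ratio. As 94.2% of all pairs had a scaled ratio below 1, this count says little about these loci in particular. Both exceptions came from leaving out the scaling for depth, which gave 1.10 at the region 39.1 kb upstream of ETV4 and 1.05 at the region 1345 bp inside ETV5. Without scaling, the summed ratio was 0.754 at ETV1, 0.784 at ERG, 0.797 at ETV4, 0.785 at ETV5 and 0.781 over the 4 loci, and the median log2 ratio over the 4 loci was -0.36. The unscaled values over all pairs were 0.803 and -0.32. Under the other flanks and overlap rules, background subtraction, the −log10 q limit and the limit of 60 tags, the summed ratios stayed within the 95% intervals given for them. Counts depended on the window and the list by construction. With the gene bodies alone, 39 GSK2879552 and 51 vehicle peaks remained, 21 of the vehicle peaks without a partner. With flanks of 100 kb, 21 GSK2879552 peaks had no partner. At a −log10 q of at least 5 the GSK2879552 list had 41 members, 97.6% with a partner and 1 without. With a reciprocal overlap of 50%, 67.7% of GSK2879552 peaks had a partner and 21 had none. Lists of equal length were used for counts and shares and not for ratios, and gave 65 GSK2879552 and 73 vehicle peaks, with 33 and 31 at ERG. At most single regions depth leaves wide intervals.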
